A study of Mus musculus with 6 samples.

Results

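A set of 10 forkhead transcription factor genes of embryonic mesenchyme was examined: Foxc1, Foxc2, Foxd1, Foxd2, Foxf1, Foxf2, Foxl1, Foxp1, Foxp2 and Foxq1. They were picked by symbol, each through the array probe sets that list it alone, and all 10 were measured, among 22180 genes in all. Only Foxq1 had more than 1 such probe set, and its brighter one over the 6 arrays was used. RNA came from embryonic fibroblasts of 129SV mice (dorsal body wall, stage E14.5). The embryos carried 1 green fluorescent protein (GFP) reporter allele of the transcription factor gene Ebf2, Ebf2(GFP)/+. Freshly isolated cells positive for PDGFRα, a growth factor receptor on the surface of mesenchyme, were sorted into Ebf2(GFP)+ cells (n = 3 arrays) and Ebf2(GFP)- cells (n = 3 arrays), called GFP-positive and GFP-negative here, and both groups carry the reporter allele and the PDGFRα selection. The comparison asks how the forkhead genes differ between PDGFRα-positive cells with and without Ebf2 reporter activity, a reporter the series presents as a mark of brown and beige fat precursors.

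Forkhead proteins bind DNA through a winged helix domain that is conserved across the family, and many of them set regional identity in mesenchyme. Foxc1 and Foxc2 act together in paraxial mesoderm, somites, vessels and cartilage, and forced expression of Foxc2 in mouse fat gives white fat features of brown fat. Foxf1, Foxf2 and Foxl1 are effectors of hedgehog signals in the mesenchyme of gut and lung. Foxd1 marks the stromal progenitors of the kidney, and Foxd2 is its close relative. Foxp1 and Foxp2 are repressors with roles in lung, heart and brain, and Foxq1 is required for normal hair structure in mice. Foxf1, Foxc2 and Foxl1 lie in a cluster on mouse chromosome 8, and Foxq1, Foxf2 and Foxc1 in another on chromosome 13, with a few other genes between them.

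Of the 10 genes, 3 were called lower in GFP-positive cells, namely Foxf2, Foxc2 and Foxc1, and 0 higher. The test was limma's, a linear model that pools the spread over genes, and a gene was called at a p under 0.05 after Benjamini-Hochberg adjustment across the whole table. That rule called 3.84% of all genes lower and 2.65% higher. At an unadjusted p under 0.05, 7 members were lower and 0 higher, where 8.51% of all genes were lower and 9.19% higher. The arrays of the groups did not overlap for 6 members, all lower in GFP-positive cells, where 9.78% of all genes were lower without overlap and 12.3% higher. Group means were lower in GFP-positive cells for 9 of 10 members, against 43.9% of all genes. The median log2 change of the members was -0.353, and that of all genes was 0.016. The members were chosen with earlier results of these data known, so these counts beside the shares of all genes are a description and not a test. The labels do not say whether the replicates are separate litters or cultures, so p-values reflect the spread among these 6 arrays alone, and that spread may be technical. RNA was measured in bulk, so fewer cells that express a gene and less of its RNA per cell cannot be told apart.

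**Figure D1:**
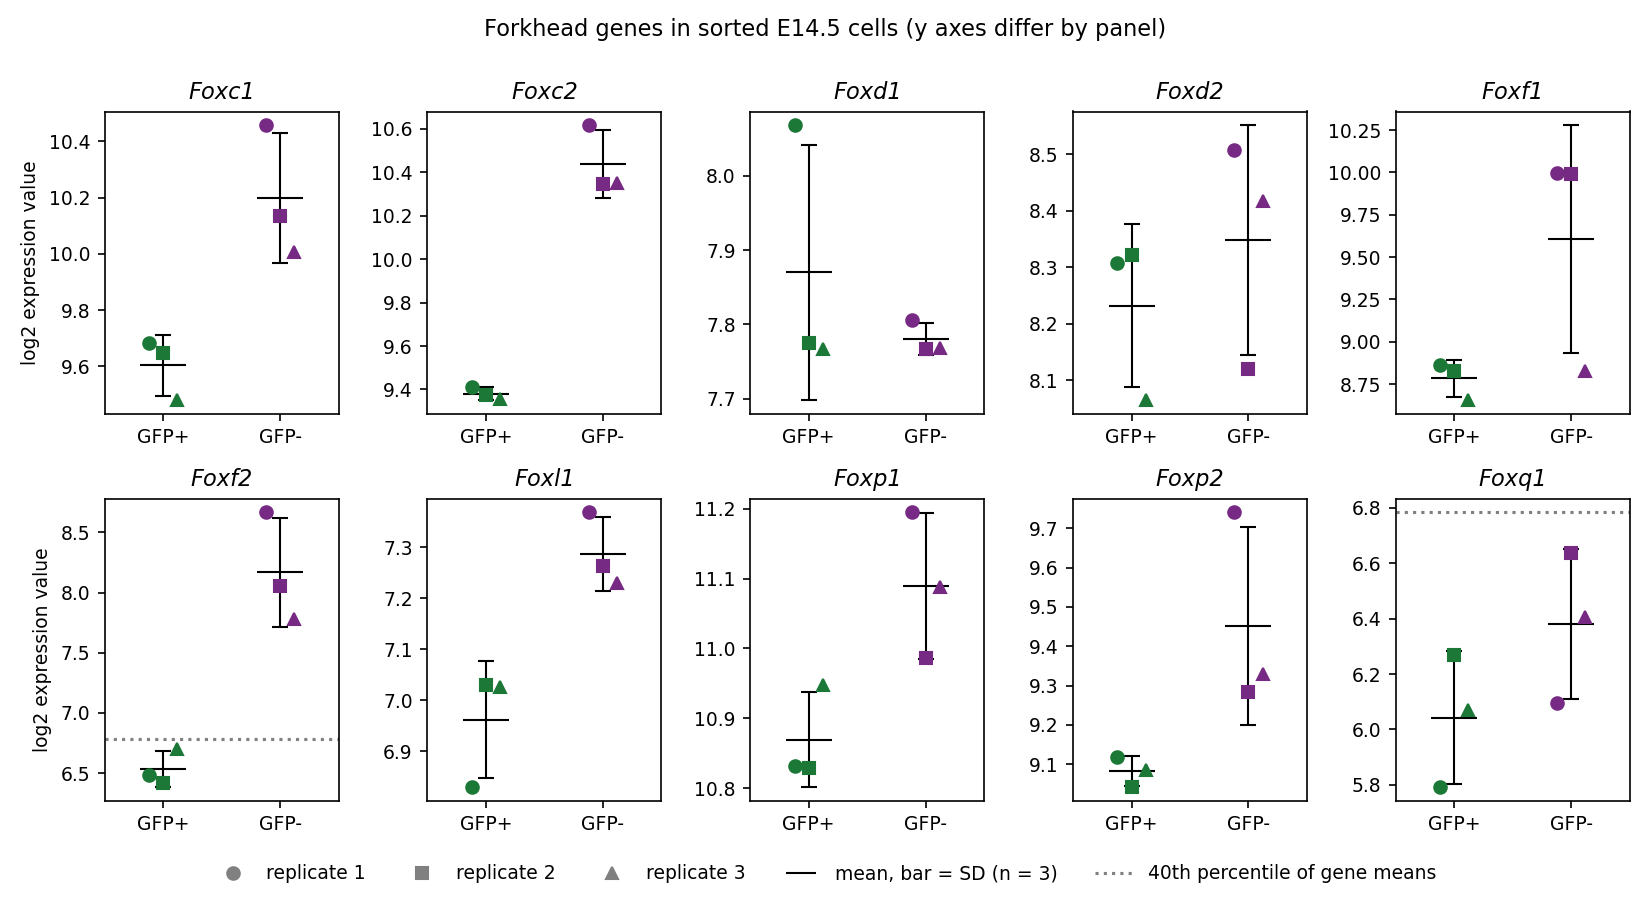
Log2 expression values of the 10 forkhead genes on each array, GFP-positive left and GFP-negative right, with group mean and SD (n = 3 arrays each); the y axis differs by panel. The groups are apart for Foxc1, Foxc2, Foxf2, Foxl1, Foxp1 and Foxp2, and 1 GFP-negative array of Foxf1 lies among the GFP-positive ones.

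The 250 bases before the annotated start of Foxf2, Foxc1 and Foxd1 are shown because these genes lie on the same chromosome and behaved differently: Foxf2 and Foxc1 fell and Foxd1 did not pass. The sequences are RefSeq's for build GRCm38.p6, plus strand, at chr13:31625566-31625815, chr13:31806396-31806645 and chr13:98353995-98354244. Capitals mark matches on either strand to 5 short motifs, chosen after the values were seen, and no match in these windows overlaps another: the forkhead motif TGTTTAC, the core of the EBF motif TCCCNNGGG, the CCAAT box CCAAT, the GC box GGGCGG and the TATA box TATAAA.
Foxf2: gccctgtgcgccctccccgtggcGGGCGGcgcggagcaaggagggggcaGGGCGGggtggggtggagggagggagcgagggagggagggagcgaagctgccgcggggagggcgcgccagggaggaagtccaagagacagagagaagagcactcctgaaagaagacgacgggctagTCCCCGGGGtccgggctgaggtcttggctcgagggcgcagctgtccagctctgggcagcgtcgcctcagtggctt
Foxc1: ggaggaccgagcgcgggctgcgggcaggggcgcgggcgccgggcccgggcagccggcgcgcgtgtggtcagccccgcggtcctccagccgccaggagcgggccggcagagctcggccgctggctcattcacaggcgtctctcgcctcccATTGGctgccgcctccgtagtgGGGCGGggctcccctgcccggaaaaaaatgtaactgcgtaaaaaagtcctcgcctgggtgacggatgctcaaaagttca
Foxd1: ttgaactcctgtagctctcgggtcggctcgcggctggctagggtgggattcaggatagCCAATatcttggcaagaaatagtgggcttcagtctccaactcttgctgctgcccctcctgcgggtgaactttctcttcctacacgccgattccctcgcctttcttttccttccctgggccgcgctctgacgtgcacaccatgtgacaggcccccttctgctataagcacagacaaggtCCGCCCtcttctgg

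The Foxf2 window held 2 GC boxes and 1 EBF core, which starts 75 bases before the annotated start. The Foxc1 window held 1 CCAAT box and 1 GC box, as did that of Foxd1. The guanine and cytosine content was 71.6% for Foxf2, 70.8% for Foxc1 and 57.2% for Foxd1, and the median of all windows was 52.4%. Windows were found for 5 of the 10 members (7 windows, 3 of them of Foxp1). None of the 7 held the forkhead motif, which 3.2% of 32536 windows of the same length hold, and none held the TATA box (12.3%). The EBF core was in 2 of 7 (5.6% of all windows), the CCAAT box in 3 (33.8%) and the GC box in 6 (10727 of all windows). A match is a description of the letters only, and the arrays hold no measure of binding.

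Foxc2 (probe set 17506296) had the smallest p of the members. Its log2 values were 9.41, 9.38 and 9.35 on the GFP-positive arrays, against 10.62, 10.34 and 10.35 on the GFP-negative arrays. The groups lay far apart, and the GFP-positive arrays nearly coincided. Foxc2 fell 2.08-fold, to a mean of 9.38 ± 0.029 (SD, n = 3) in GFP-positive cells, against 10.44 ± 0.155 (SD, n = 3) in GFP-negative cells (log2 change -1.06 ± 0.08 SE, limma adjusted p = 0.00126). The call held in all 14 alternative settings, with adjusted p-values between 0.000583 and 0.0119.

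Foxc1 (probe set 17286340), the sister gene of Foxc2, moved the same way by less. Its log2 values were 9.68, 9.65 and 9.48 in GFP-positive cells, against 10.46, 10.13 and 10.01 in GFP-negative cells. All GFP-positive arrays were below all GFP-negative ones, and GFP-negative replicate 1 was the highest. Foxc1 fell 1.51-fold (log2 change -0.60 ± 0.12 SE, 95% interval -0.89 to -0.30, limma adjusted p = 0.0381). The call ended without GFP-negative replicate 2 (adjusted p = 0.103) or without GFP-positive replicate 1, 2 or 3 (0.110, 0.120 and 0.135), with log2 changes between -0.69 and -0.47 over the arrays left out. It also ended after centring the arrays on the median of the named probe sets (adjusted p = 0.0547).

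Foxf2 (probe set 17286332) had the largest change of the 10 genes. Its log2 values were 6.49, 6.42 and 6.70 in GFP-positive cells, against 8.67, 8.06 and 7.78 in GFP-negative cells. The groups did not overlap, and the GFP-negative arrays were more spread. Foxf2 fell 3.10-fold, to a mean of 6.53 ± 0.149 (SD, n = 3) in GFP-positive cells, against 8.17 ± 0.454 (SD, n = 3) in GFP-negative cells (log2 change -1.63 ± 0.22 SE, limma adjusted p = 0.00815). Every GFP-positive array lay below log2 6.78, the 40th percentile of gene means, which serves as a mark of dim genes because the values come without detection calls, so the fold may be a lower bound. The call held in all 14 settings (adjusted p between 0.00378 and 0.0479), closest to the threshold without GFP-positive replicate 1.

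Foxf1, the sister gene of Foxf2, did not pass, and 1 array decided its test. Its log2 values were 8.86, 8.83 and 8.66 in GFP-positive cells, against 9.997, 9.991 and 8.83 in GFP-negative cells. GFP-negative replicates 1 and 2 stood well above every GFP-positive array, while GFP-negative replicate 3 lay among them. The log2 change was -0.82 ± 0.31 SE (95% interval -1.56 to -0.09, limma adjusted p = 0.226). Without GFP-negative replicate 3 it was -1.21 ± 0.08 SE and passed (adjusted p = 0.00295), and over the other arrays left out the adjusted p rose as far as 0.483.

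Foxl1, which encodes a factor of the mesenchyme under the gut epithelium, had log2 values of 6.83, 7.03 and 7.03 in GFP-positive cells, against 7.37, 7.26 and 7.23 in GFP-negative cells. The groups did not overlap, although the values lie close to the dim mark. Its log2 change of -0.32 ± 0.08 SE missed the threshold (limma adjusted p = 0.0576). It passed after median centring over all probe sets (adjusted p = 0.0465) and without dim genes (0.0409), and its highest adjusted p over the settings was 0.144.

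Foxp1 and Foxp2 had small differences that did not pass. Foxp1 had log2 values of 10.83, 10.83 and 10.95 in GFP-positive cells, against 11.20, 10.99 and 11.09 in GFP-negative cells (log2 change -0.22 ± 0.07 SE, limma adjusted p = 0.162). Foxp2 had log2 values of 9.12, 9.04 and 9.09 in GFP-positive cells, against 9.74, 9.28 and 9.33 in GFP-negative cells (log2 change -0.37 ± 0.12 SE, limma adjusted p = 0.167). Neither gene had overlapping groups, and neither passed in any of the 14 settings. GFP-negative replicate 1 was the highest array for both.

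Foxd1 and Foxd2 did not separate the groups. Foxd1 had log2 values of 8.07, 7.77 and 7.77 in GFP-positive cells, against 7.81, 7.77 and 7.77 in GFP-negative cells. Apart from GFP-positive replicate 1 the arrays lay within a narrow band, and the log2 change of 0.09 (95% interval -0.12 to 0.30, limma adjusted p = 0.691) became -0.01 without that array. Foxd2 had log2 values of 8.31, 8.32 and 8.07 in GFP-positive cells, against 8.51, 8.12 and 8.42 in GFP-negative cells, with a log2 change of -0.12 (95% interval -0.40 to 0.17, limma adjusted p = 0.701). The intervals hold 0 for both genes and leave out changes of the size seen for Foxc2.

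Foxq1 was dim, with every array below the dim mark. Its log2 values were 5.79, 6.27 and 6.07 in GFP-positive cells, against 6.10, 6.64 and 6.41 in GFP-negative cells. The groups overlapped, but the GFP-positive array was lower in all 3 same-numbered pairs. The log2 change was -0.34 ± 0.17 SE (limma adjusted p = 0.378). With the replicate number as a block it passed (adjusted p = 0.0181), which brought the members called lower to 4 of 10, where 5.49% of all genes were called lower with the block. The other Foxq1 probe set had a log2 change of 0.03 (adjusted p = 0.874 in a fit over single probe sets), so the 2 probe sets did not share the direction.

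**Figure D2:**
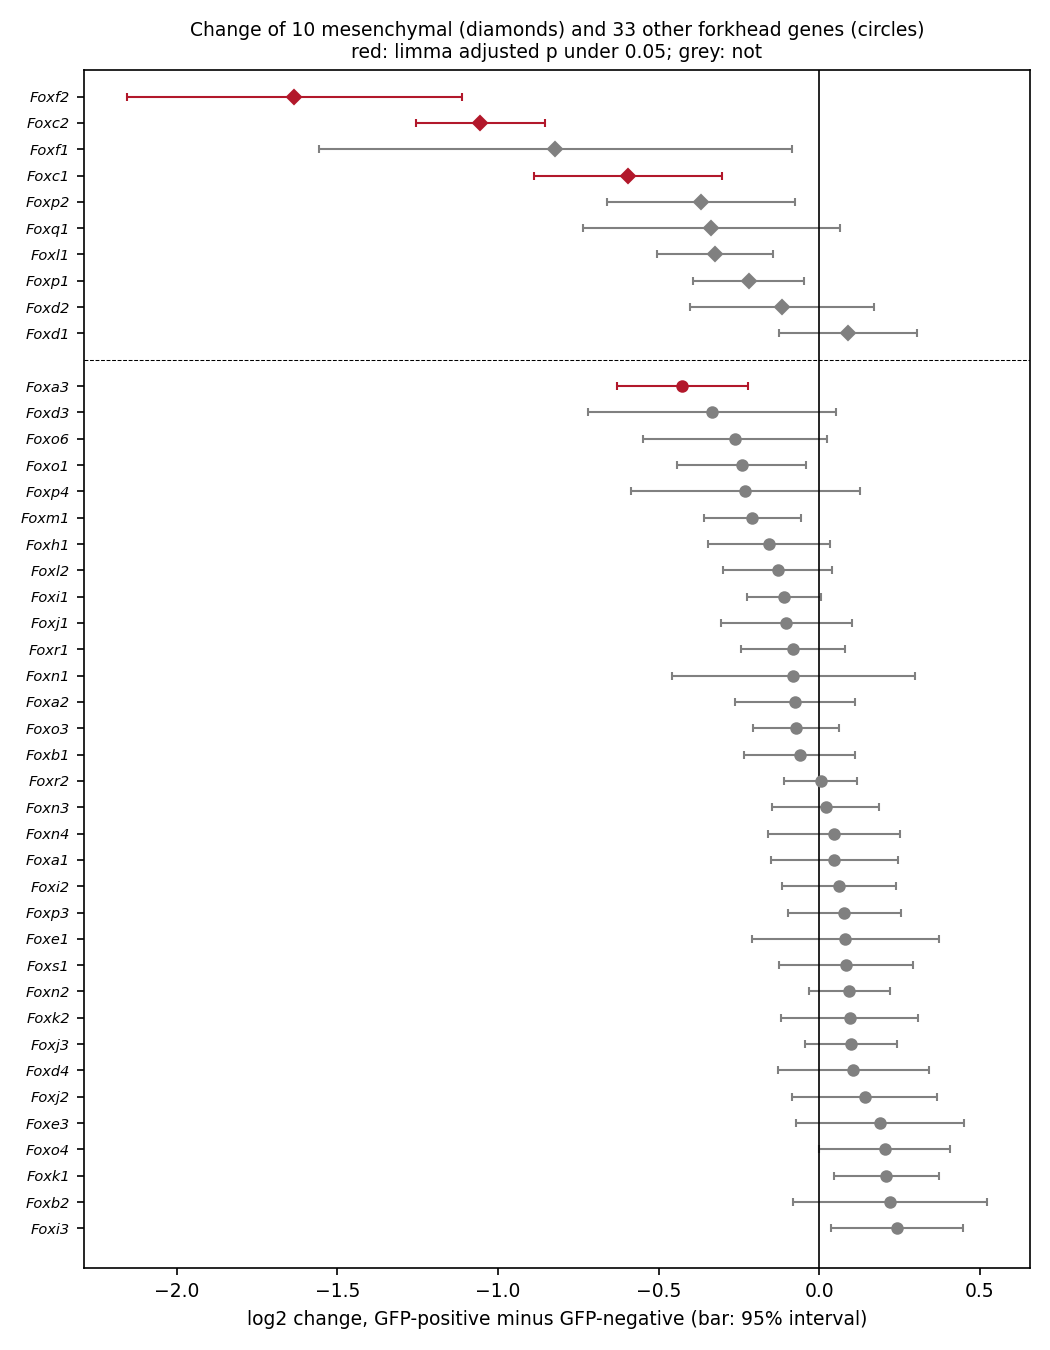
Log2 changes (GFP-positive minus GFP-negative, with limma 95% intervals) of the 10 mesenchymal forkhead genes, diamonds, and 33 other forkhead genes, circles; red marks an adjusted p under 0.05. Foxf2, Foxc2 and Foxc1 are red among the members and Foxa3 among the other genes.

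Most other forkhead genes showed little difference. Of 33 measured, 0 were called higher and 1 lower by limma (2 and 3 at an unadjusted p under 0.05), with a median log2 change of 0.019. The gene that passed was Foxa3, known as a regulator of metabolic genes in liver. Its log2 values were 7.48, 7.73 and 7.50 in GFP-positive cells, against 8.02, 8.07 and 7.91 in GFP-negative cells. It fell 1.34-fold (log2 change -0.43 ± 0.09 SE, limma adjusted p = 0.0345), and the call on the log2 change of Foxa3 ended without any 1 array other than GFP-positive replicate 2 (adjusted p up to 0.131) and with array weights (0.0533).

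Sister genes were compared by the difference of their log2 values within an array, where only the change of that difference between groups has a meaning. Foxc2 minus Foxc1 was -0.27, -0.27 and -0.13 in GFP-positive cells, against 0.16, 0.21 and 0.34 in GFP-negative cells. The groups did not overlap, and the difference was lower in GFP-positive cells by 0.46 on the log2 scale (change -0.46, two-sided exact permutation p = 0.10). Foxf2 minus Foxf1 was -2.378, -2.414 and -1.955 in GFP-positive cells, against -1.330, -1.935 and -1.045 in GFP-negative cells, a change of -0.81 (exact permutation p = 0.10). These groups nearly touched, at GFP-positive replicate 3 and GFP-negative replicate 2. The changes were -0.21 for Foxd2 minus Foxd1 and -0.15 for Foxp2 minus Foxp1 (exact permutation p = 0.20 each). The design with 3 arrays against 3 cannot give a p below 0.10, and after adjustment over the 4 pairs all were at 0.20.

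**Figure D3:**
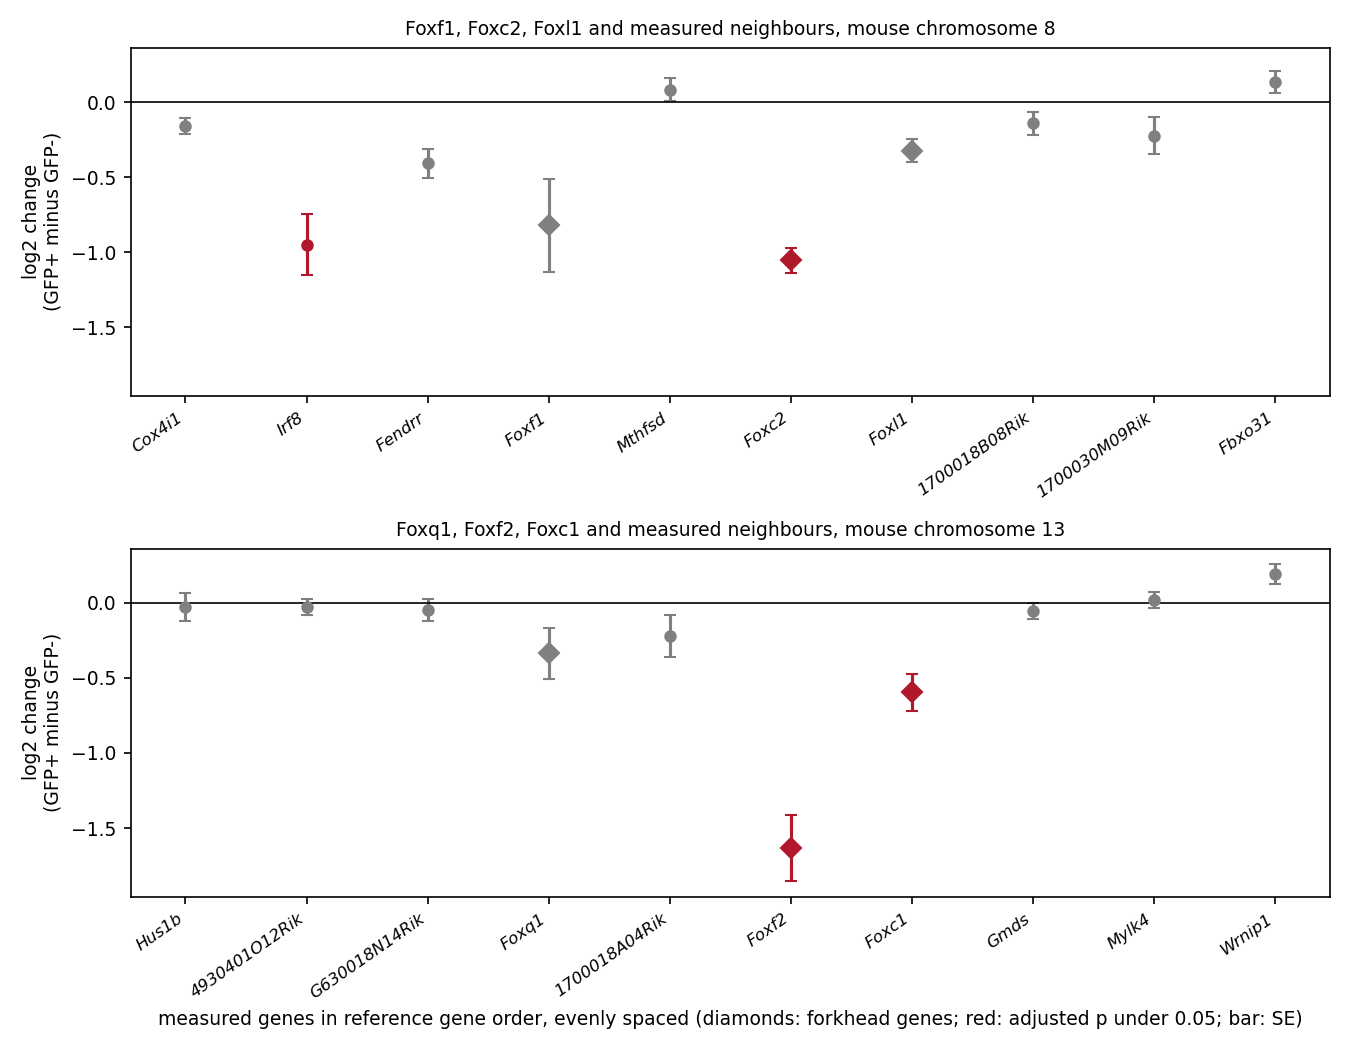
Log2 changes (GFP-positive minus GFP-negative, bars SE) of the 2 forkhead gene clusters and the 3 measured genes on either side, in the gene order of the reference; diamonds are forkhead genes and red marks an adjusted p under 0.05. The forkhead genes lie below 0 in both clusters, and the red neighbour is Irf8.

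The 2 gene clusters held 6 of the members, and all 6 had lower means in GFP-positive cells. So did 9 of all 10 members, 43.9% of all genes, and most other measured genes in and around the clusters. On chromosome 8, the order in RefSeq's assembly GRCm38.p6 is Foxf1, Mthfsd, Foxc2 and Foxl1. Mthfsd, which lies between the forkhead genes, had log2 values of 9.05, 8.89 and 9.07 in GFP-positive cells, against 8.89, 8.83 and 9.03 in GFP-negative cells, with a log2 change of 0.08 ± 0.08 SE (limma adjusted p = 0.660). The groups of Mthfsd overlapped, as did those of Foxf1 on one side of it, while those of Foxc2 on the other side did not.

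Fendrr, a long noncoding RNA gene beside Foxf1 that acts in lateral mesoderm, was measured at 6.36, 6.61 and 6.41 in GFP-positive cells, against 6.97, 6.93 and 6.71 in GFP-negative cells. GFP-negative replicate 3 was the lowest of its group for Fendrr as it was for Foxf1. For Fendrr that array and every GFP-positive array lay below the dim mark. The log2 change of Fendrr was -0.41 ± 0.10 SE (limma adjusted p = 0.0631), and the log2 change of Fendrr passed with the replicate block (0.0401) and without GFP-negative replicate 3 (0.0490). Irf8, the next measured gene and a regulator of myeloid cells, fell (log2 change -0.95 ± 0.20 SE, limma adjusted p = 0.0415). The call on the log2 change of Irf8 was lost without any 1 array other than GFP-negative replicate 2 (adjusted p up to 0.159), and with the mean of its probe sets the change was -0.52 (0.0468). Its values were 7.18, 7.36 and 7.36 in GFP-positive cells, against 8.28, 7.80 and 8.65 in GFP-negative cells, and GFP-negative replicate 3 was the highest array, unlike for Foxf1 and Fendrr. The other flanking genes, Cox4i1, 1700018B08Rik, 1700030M09Rik and Fbxo31, had log2 changes between -0.22 and 0.13 and did not pass. Of these, 1700030M09Rik was below the dim mark in both groups.

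On chromosome 13, the order of measured genes is Foxq1, 1700018A04Rik, Foxf2 and Foxc1. The long noncoding RNA gene 1700018A04Rik had a log2 change of -0.22 ± 0.14 SE (limma adjusted p = 0.502). The genes before the cluster, Hus1b, 4930401O12Rik and G630018N14Rik, had changes of -0.03, -0.03 and -0.05. Gmds, an enzyme gene of GDP-fucose synthesis that follows Foxc1, had a change of -0.06, Mylk4 of 0.02 and Wrnip1 of 0.19, and none of these 6 passed. Foxf2 and Foxc1 were thus the only genes called among the 10 measured in and around this cluster. Both group means lay below the dim mark for Foxq1, 1700018A04Rik, Hus1b, 4930401O12Rik, G630018N14Rik and Mylk4. For these dim genes signal over background is not known, so a difference could have been missed.

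The genes nearest in profile were found by the root mean square difference of log2 values over the 6 arrays, each gene centred on its own mean, as a description. Foxc2 was nearest to Slc22a6, an organic anion transporter gene (difference 0.050), Sp7, an osteoblast transcription factor gene (0.057), and Syt17 (0.063). Foxf2 was nearest to Pou3f3, a POU domain transcription factor gene (0.149), Fgfr3, a fibroblast growth factor receptor gene of cartilage (0.160), and Gfra3, a receptor gene of the GDNF family (0.163). Foxc1 was nearest to Chn2 (0.039), Alx1, a homeobox gene of craniofacial mesenchyme (0.057), and Rassf3 (0.062). Among the 3 genes that fell, the neighbours of Foxf2 were the most distant, and its GFP-negative arrays had the largest SD.

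Genes linked to these factors were called in both directions. Of 10 measured hedgehog receptor and response genes, 0 were called higher and 0 lower by limma (3 and 2 at an unadjusted p under 0.05), with a median log2 change of -0.028. With the replicate block, 1 was higher and 1 lower, where 1010 and 1218 of all 22180 genes were. These 2 genes are named after their values were seen. Ptch1, a hedgehog receptor and target gene, had a change of -0.51 (adjusted p = 0.0587, or 0.00653 with the block), and Gli3, a transcription factor gene of the pathway, of 0.46 (0.0695, or 0.0133 with the block). Each also passed in other settings, such as without dim genes (limma adjusted p = 0.0417 for Ptch1 and 0.0497 for Gli3). Smo, Gli1 and Gli2 had changes of -0.07, -0.12 and 0.15.

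Of 15 measured genes of visceral and gut mesenchyme, where Foxf1, Foxf2 and Foxl1 act, 1 was lower and 0 higher, with a median of -0.050. At an unadjusted limma p under 0.05, 4 were lower and 3 higher. The gene called was Wnt2b, a Wnt ligand, with log2 values of 9.44, 9.13 and 9.59 in GFP-positive cells, against 9.99, 10.02 and 10.11 in GFP-negative cells. It fell 1.57-fold (limma adjusted p = 0.0241), a call on the log2 change of Wnt2b that was lost without GFP-positive replicate 1 or any 1 GFP-negative replicate (adjusted p up to 0.0855). With the replicate block 4 were lower, where 5.49% of all genes were. The others were Wnt2 (-0.70, limma adjusted p = 0.0259 with the block), Hand2 (-0.36, 0.0198) and Gata6 (-0.42, 0.0472). Without the block these 3 did not pass (limma adjusted p = 0.204, 0.156 and 0.135), and the groups of Wnt2 overlapped.

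Of 15 measured targets and partners of Foxc1 and Foxc2, 2 were lower and 0 higher, with a median of 0.050. Msx2, a homeobox gene, had log2 values of 6.25, 6.30 and 6.21 in GFP-positive cells, against 7.21, 7.10 and 7.18 in GFP-negative cells. It fell 1.89-fold (limma adjusted p = 0.000551), and its GFP-positive mean was below the dim mark. Hey2, a Notch target gene of vessels, fell 1.89-fold (log2 change -0.92 ± 0.15 SE, limma adjusted p = 0.0190), a call on the log2 change of Hey2 that was lost without GFP-negative replicate 2 or any 1 GFP-positive replicate (adjusted p up to 0.0864). The chemokine gene Cxcl12 and its receptor gene Cxcr4 had changes of 0.42 and 0.47 that did not pass (adjusted p = 0.0548 and 0.205) and were called higher with the block (0.0185 and 0.0104). Cxcl12 also passed in other settings, such as without dim genes (0.0388).

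Of 12 measured genes of somite and sclerotome, tissues where Foxc1 and Foxc2 act, 3 were higher and 0 lower, with a median of 0.217. The replicate block made these counts 4 and 0, where it called 1010 of all 22180 genes higher and 1218 lower. Meox1 and Meox2, homeobox genes of the somite, rose by 2.22 ± 0.23 SE and 0.88 ± 0.09 SE on the log2 scale (limma adjusted p = 0.00323 and 0.00371). Tcf15, a factor of somite epithelium, had log2 values of 8.26, 8.16 and 7.85 in GFP-positive cells, against 6.74, 7.12 and 6.74 in GFP-negative cells. It rose 2.33-fold (limma adjusted p = 0.00540). The sclerotome factor genes Pax1 and Pax9 had changes of 0.35 and 0.40 and did not pass (adjusted p = 0.397 and 0.539).

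Of 9 measured genes listed with Foxd1 in stroma and kidney development, 1 was higher and 1 lower, with a median of 0.094. The replicate block made these counts 2 and 1. Hoxd11, a Hox gene of the posterior trunk and limb, rose 1.37-fold (limma adjusted p = 0.0169). The log2 change of Hoxd11 missed the threshold without GFP-positive replicate 2 or GFP-negative replicate 2 or 3 (adjusted p up to 0.0593). Sall1, a factor of kidney progenitors, fell 1.42-fold (0.00689) and was below the dim mark in GFP-positive cells. Of 13 measured corepressors and partners of Foxp1 and Foxp2, limma called 0 higher and 0 lower (0 and 0 at an unadjusted p under 0.05), with a median of 0.031.

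**Figure D4:**
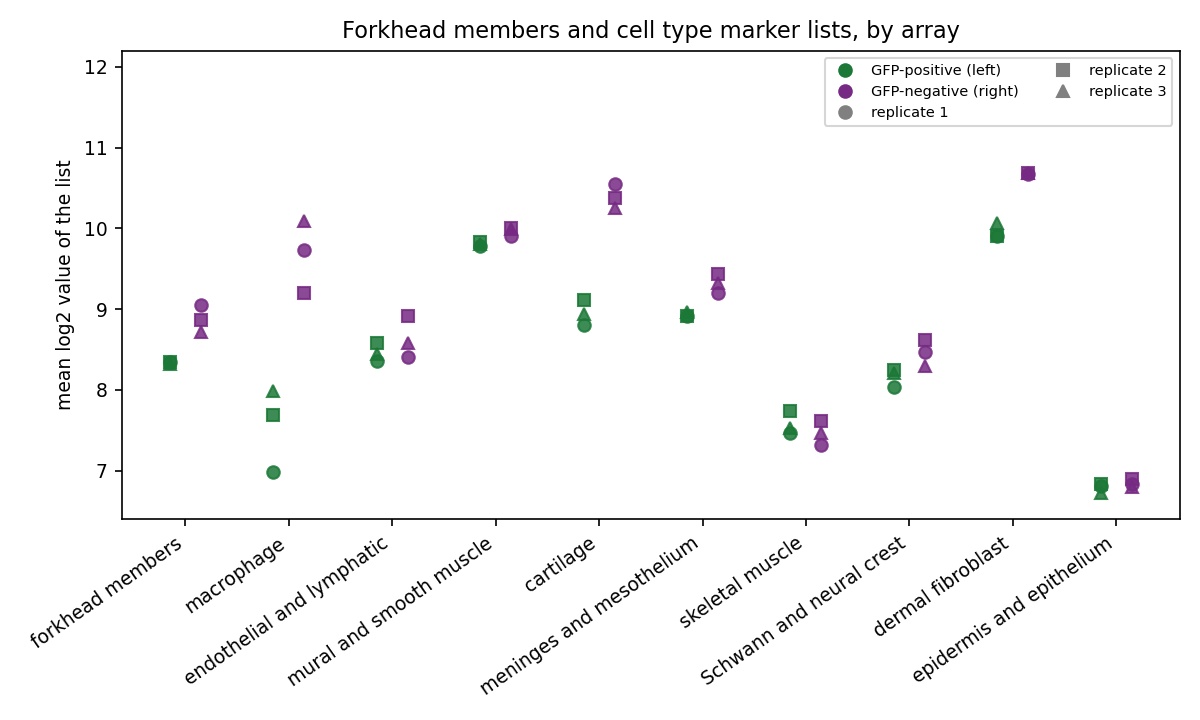
Mean log2 value of the 10 forkhead genes and of 9 lists of cell type markers on each array, GFP-positive left and GFP-negative right. The means of the forkhead genes and of the macrophage, cartilage, dermal, mural, meninges and Schwann lists are lower on every GFP-positive array than on any GFP-negative array. The mural, meninges and Schwann lists each also hold a marker called higher in GFP-positive cells.

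Marker genes of other cell types differed between the same arrays. The marker lists, like the members, were chosen with earlier results of these data known, so their counts are a description. Ebf2, by whose reporter the cells were sorted, rose 10.2-fold (log2 change 3.35, limma adjusted p = 0.000916). With the mean of its probe sets the log2 change of Ebf2 was 1.69, and Pdgfra, selected in both groups, had mean log2 values of 13.14 in GFP-positive cells and 12.95 in GFP-negative cells. All 14 measured macrophage markers fell, and their mean log2 level was 6.98, 7.69 and 7.98 in GFP-positive cells, against 9.73, 9.20 and 10.09 in GFP-negative cells. Among these markers Csf1r, a macrophage growth factor receptor gene, had a log2 change of -2.84 ± 0.37 SE (limma adjusted p = 0.00766).

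All 13 measured cartilage markers fell as well, with means of 8.80, 9.11 and 8.94 in GFP-positive cells, against 10.55, 10.38 and 10.25 in GFP-negative cells. Among the GFP-negative arrays, replicate 3 was the lowest for the cartilage list and for Foxf2, Foxc1, Foxf1 and Foxl1, and the highest for the macrophage list. For Foxc2, Foxd1, Foxd2, Foxp1, Foxp2 and the macrophage list the lowest was GFP-negative replicate 2, and for Foxq1 it was GFP-negative replicate 1. Matn3, a cartilage matrix gene, fell by 2.20 on the log2 scale (limma adjusted p = 0.000171). Of 14 measured dermal fibroblast markers, 9 fell and 0 rose, with means of 9.91, 9.90 and 10.07 in GFP-positive cells, against 10.67, 10.68 and 10.69 in GFP-negative cells.

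Of 13 endothelial and lymphatic markers, 1 rose and 2 fell, with means of 8.36, 8.58 and 8.44 in GFP-positive cells, against 8.41, 8.91 and 8.58 in GFP-negative cells. Of 12 mural and smooth muscle markers, 1 rose and 4 fell, with a median log2 change of -0.202. The riser was Notch3 (log2 change 0.50, limma adjusted p = 0.0293). The list means were between 9.78 and 9.83 in GFP-positive cells and between 9.90 and 10.01 in GFP-negative cells. Of 12 meninges and mesothelium markers, 1 rose and 2 fell, with a median log2 change of -0.06. The transporter gene Slc6a13 and Ptgds fell (log2 changes -2.32 and -2.13, limma adjusted p = 0.000390 and 0.00535), and Wt1 rose (0.76, limma adjusted p = 0.00863). The list means were between 8.91 and 8.97 in GFP-positive cells and between 9.20 and 9.43 in GFP-negative cells. Of 8 Schwann and neural crest markers, 1 rose and 2 fell, 6 were lower at an unadjusted p under 0.05, and the median log2 change was -0.388. Their means were 8.03, 8.25 and 8.21 in GFP-positive cells, against 8.47, 8.62 and 8.30 in GFP-negative cells. Of 14 skeletal muscle markers 1 rose and 0 fell, and of 9 epithelial markers 0 rose and 1 fell. The part of these cell types in the forkhead differences was not tested.

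**Figure D5:**
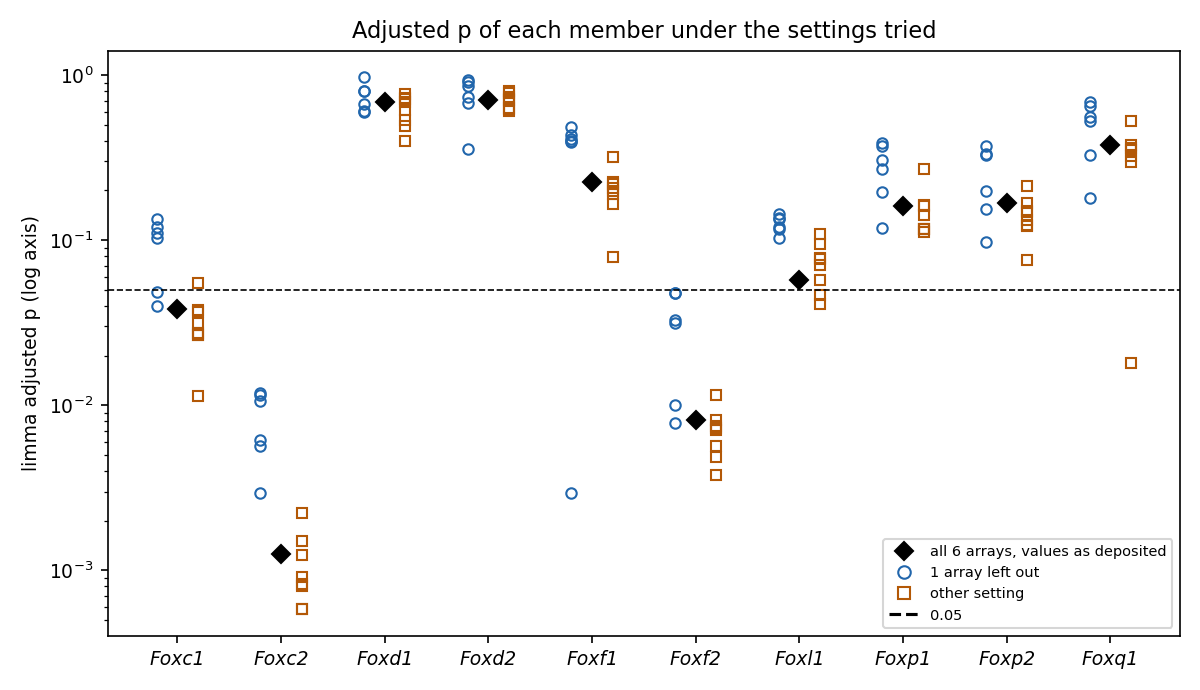
Limma adjusted p (log axis) of each forkhead gene with all 6 arrays (diamonds), with 1 array left out (circles) and under the other settings (squares); the dashed line is 0.05. Foxc2 and Foxf2 stay below the line, Foxc1, Foxf1, Foxl1 and Foxq1 cross it, and Foxd1, Foxd2, Foxp1 and Foxp2 stay above it.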

How the data were processed

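Total RNA of 6 sorted samples was labelled with biotin and hybridised to Affymetrix arrays, per the labels. The authors deposited log2 values for each probe set. RMA and limma are named in the submitters' processing notes, with no version given. RMA quantile-normalizes arrays, which hides any change common to the bulk of genes. The log2 scale was read from the values, with array medians between 6.657 and 6.712.

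Of 41345 probe sets, 23521 list 1 gene, 1814 several and 16010 none in the platform annotation, which gave 22180 genes with the brightest probe set each. All 6 arrays were fitted with limma 3.58.1 (lmFit, eBayes; R 4.3.3), GFP-positive minus GFP-negative, with Benjamini-Hochberg adjustment over all genes and a threshold of 0.05. It was tested on simulated data. The number of arrays limits the precision. Sister genes were compared by exact permutation tests.

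Named genes were all members, Ebf2 and Pdgfra, up to 8 other forkhead genes that passed, up to 3 that passed from each list, the genes flanking the clusters and the 3 nearest profiles of each member that passed. Others are given with their lists and were chosen after their values were seen. The members and lists were chosen with earlier results of these data known. Over all genes, deviations from group means correlated at 0.314 to 0.519 between same-numbered arrays, which was taken to pair them, from the data alone. Between arrays of different number the correlations were -0.384 to -0.024. The main fit and the permutation tests did not take the replicate number as a block. The alternatives were this block, quantile normalization, median centring (also on named probe sets, added after seeing the data), a filter on dim genes, the mean of a gene's probe sets, each probe set by itself, eBayes with trend and robust, array weights, a threshold of 0.01 and leaving out each array.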

Additional observations from a re-analysis of the deposited data

How the results depend on the processing

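The members called lower numbered 2 to 4 of 10 over the settings and those called higher 0 in each. Foxc2 and Foxf2 were called lower at 0.05 in all 14. Over all genes, 588 were called higher and 851 lower; these were 1010 and 1218 with the replicate block, 904 and 737 (55.1% of calls higher, against 40.9%) after centring on named probe sets, and 208 and 331 at a threshold of 0.01. Leaving out 1 array gave 241 to 441 higher and 388 to 656 lower; fewer samples enter each such fit. The median log2 change of all genes was 0.0163 as deposited and 0.0751 after that centring. With the block as a pairing term, Foxq1 (adjusted p = 0.0181) was the member gained.

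Changes near 0 turned sign. After centring on named probe sets the log2 change was 0.030 for Hus1b, 0.033 for 4930401O12Rik, 0.012 for G630018N14Rik and 0.003 for Gmds. With 1 array left out it ran from -0.009 to 0.141 for Foxd1, from -0.102 to 0.042 for Hus1b, from -0.049 to 0.013 for 4930401O12Rik, from -0.083 to 0.025 for G630018N14Rik and from -0.007 to 0.036 for Mylk4. The other Foxq1 probe set gave 0.026. The cause was not tested. Array values carry no detection calls, so signal over background is not known for Foxq1 or for Foxf2 in GFP-positive cells.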
